A study of Mus musculus with 18 samples.

Results

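The 10 genes described here mark enteroendocrine cells, the scattered hormone-secreting cells of the gut epithelium. They were taken by name from the 24062 genes of the count table and all 10 were found: the granule proteins Chga and Chgb, the peptide hormones Cck, Gip, Sct, Gcg, Pyy, Nts and Sst, and Tph1, the enzyme that starts serotonin synthesis in gut epithelium. Enteroendocrine cells arise from the same crypt stem cells as absorptive cells, store their products in dense-core granules built with chromogranins, and release them when they sense nutrients. Which hormone they make changes along the gut: Gip (glucose-dependent insulinotropic peptide), Cck (cholecystokinin) and Sct (secretin) are classically products of the upper small intestine, while Nts (neurotensin), Pyy (peptide YY) and the proglucagon gene Gcg are richest in the ileum, and Gcg and Pyy also in the colon. Sst (somatostatin) comes from D cells all along the gut, and mucosal mast cells of mice also use Tph1 to make serotonin.

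The series sequenced RNA of 18 intestinal tumours, 1 from each numbered mouse. All mice were C57BL/6 males that carry ApcMin/+, a truncating Apc allele that gives many intestinal adenomas. Their Macrod2 genotype was Macrod2+/+ (wt), Macrod2-/+ (het) or Macrod2-/- (hom), and the sources used here give neither ages nor the deleted part of Macrod2. By source label, 17 tumours came from the large intestine (6 wt, 5 het, 6 hom) and het 4 from the small intestine. Whole tumours were sequenced, so fewer hormone cells and less RNA per cell cannot be told apart.

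Libraries held 13529204 to 20857918 gene counts, and in wt 3 the ribosomal RNA precursor Rn45s took 27.0% of them, against at most 0.725% elsewhere. Macrod2 had 0 to 8 counts in hom, below every wt (32 to 75) and het tumour (32 to 61) of the 17. In CPM (counts scaled by library size with TMM factors) wt held 2.93 to 4.55. Het 1, 2, 3 and 5 lay below that at 1.61 to 2.21 CPM, and het 6 lay inside it at 3.48 CPM. The levels therefore set every hom tumour apart, while het and wt overlapped at het 6. Most epithelial genes were high in every tumour: the summed level of 9 of them, of which Lgals4 was low at 6.11 to 15.4 CPM, lay between 11320 and 19490 CPM.

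Site genes went against the labels. In the 17 tumours labelled large intestine the posterior Hox genes that mark the colon were at or near 0: Hoxb13 reached 1.04 CPM in wt 2 and at most 0.275 CPM in the other 16, Hoxd13 at most 0.415 CPM, and Hoxd12 had no count. Insl5, the hormone of colonic L cells, had at most 2 counts in a tumour. By contrast Fabp6, the ileal bile acid binding protein, was 352 to 1664 CPM in 12 of the 17, with 86.8 CPM in het 6, 29.6 in wt 5, 11.2 in wt 4 and 2.06 and 1.73 CPM in wt 1 and wt 2. Gata4, a transcription factor of the upper small intestine, had levels of 171 (wt 1) and 179 CPM (wt 2), beside 166 CPM in het 4 and between 0.282 and 47.3 CPM in the other 15. Lactase (Lct) lay at 925, 1664 and 821 CPM in wt 1, wt 2 and het 4 and at no more than 45.6 CPM in the other 15. The large intestine therefore stands here only as the label, and the genotype estimates of the 10 genes are given with all 17 tumours and without wt 1 and wt 2.

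Upstream sequences are shown for 3 hormones whose levels parted in the Gata4-rich tumours: Gip and Cck, which were high in both wt 1 and wt 2, and Gcg, which was not. Each line holds the 250 bases before the RefSeq start site, 5′ to 3′ on the gene's strand, in GRCm38.p6, at chr11:96024295-96024544 on the + strand for Gip, chr9:121495695-121495944 on the - strand for Cck and chr2:62483654-62483903 on the - strand for Gcg. Capitals mark AGATAA, the core bound by GATA factors, searched on both strands.

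Gip: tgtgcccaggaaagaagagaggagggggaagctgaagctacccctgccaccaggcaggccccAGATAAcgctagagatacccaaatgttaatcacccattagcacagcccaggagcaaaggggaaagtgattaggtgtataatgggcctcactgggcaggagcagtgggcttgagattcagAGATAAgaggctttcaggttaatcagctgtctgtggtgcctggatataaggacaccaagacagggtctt
Cck: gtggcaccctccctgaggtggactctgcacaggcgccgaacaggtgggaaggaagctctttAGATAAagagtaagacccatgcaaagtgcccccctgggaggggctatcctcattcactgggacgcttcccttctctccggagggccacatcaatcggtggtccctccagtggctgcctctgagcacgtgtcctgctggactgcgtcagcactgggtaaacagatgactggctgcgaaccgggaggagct
Gcg: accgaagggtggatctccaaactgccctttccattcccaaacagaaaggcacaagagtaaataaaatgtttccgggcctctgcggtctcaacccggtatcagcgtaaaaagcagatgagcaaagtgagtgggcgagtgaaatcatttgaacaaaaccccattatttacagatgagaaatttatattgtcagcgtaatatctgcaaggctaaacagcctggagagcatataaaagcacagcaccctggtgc

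Counted from the start site, the motif began at -188 and -69 in Gip and at -189 in Cck, and the Gcg window held none. It occurred in 9.99% of 32851 promoter windows of this length. Among the other 7 genes only Nts held it, at -131, and Nts in wt 1 and wt 2 lay inside the range of the other 15 tumours. Chga, Chgb, Sst and Sct, which like Gip and Cck lay above those 15 in both wt 1 and wt 2, held none. TGACGTCA, the palindromic cyclic AMP response element, which does not overlap AGATAA here, began at -72 in Chgb and at -48 in Sst, and lay in 1.55% of all windows. Both motifs and the sequences to print were picked after the levels and sequences had been seen, and other short motifs had been searched first. The matches are descriptions of letters, with no binding measured.

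All 10 genes are protein coding and none overlaps another GENCODE gene. In mm10 Gip spans 96024545 to 96030831 on chromosome 11 (+ strand), Pyy 102106676 to 102107832 on the same chromosome (- strand) and Chga 102554969 to 102565028 on chromosome 12 (+ strand). Tph1 (46644641 to 46672537) and Sct (141278330 to 141279133) both lie on the - strand of chromosome 7.

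Per length, Pyy and Nts led. In the 15 tumours other than wt 1, wt 2 and het 4, median RPKM (reads relative to gene length and sequencing depth, the authors' values) was 20 for Pyy, 16.4 for Nts and 15.2 for Sct. Chga at 6.41, Sst at 6.32 and Chgb at 5.72 RPKM followed, then Gip at 3.34, Gcg at 3.0, Cck at 2.66 and Tph1 at 0.809 RPKM. Sct was above Chga in 15 of 15 tumours, the only neighbours in this order that kept it in every tumour, and the other neighbours kept their order in 7 to 11 of 15. In wt 1, wt 2 and het 4 the highest of the 10 was instead Gip, with 78.1, 72.7 and 25.9 RPKM, against 0 to 17.1 RPKM in the 15.

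**Figure D1:**
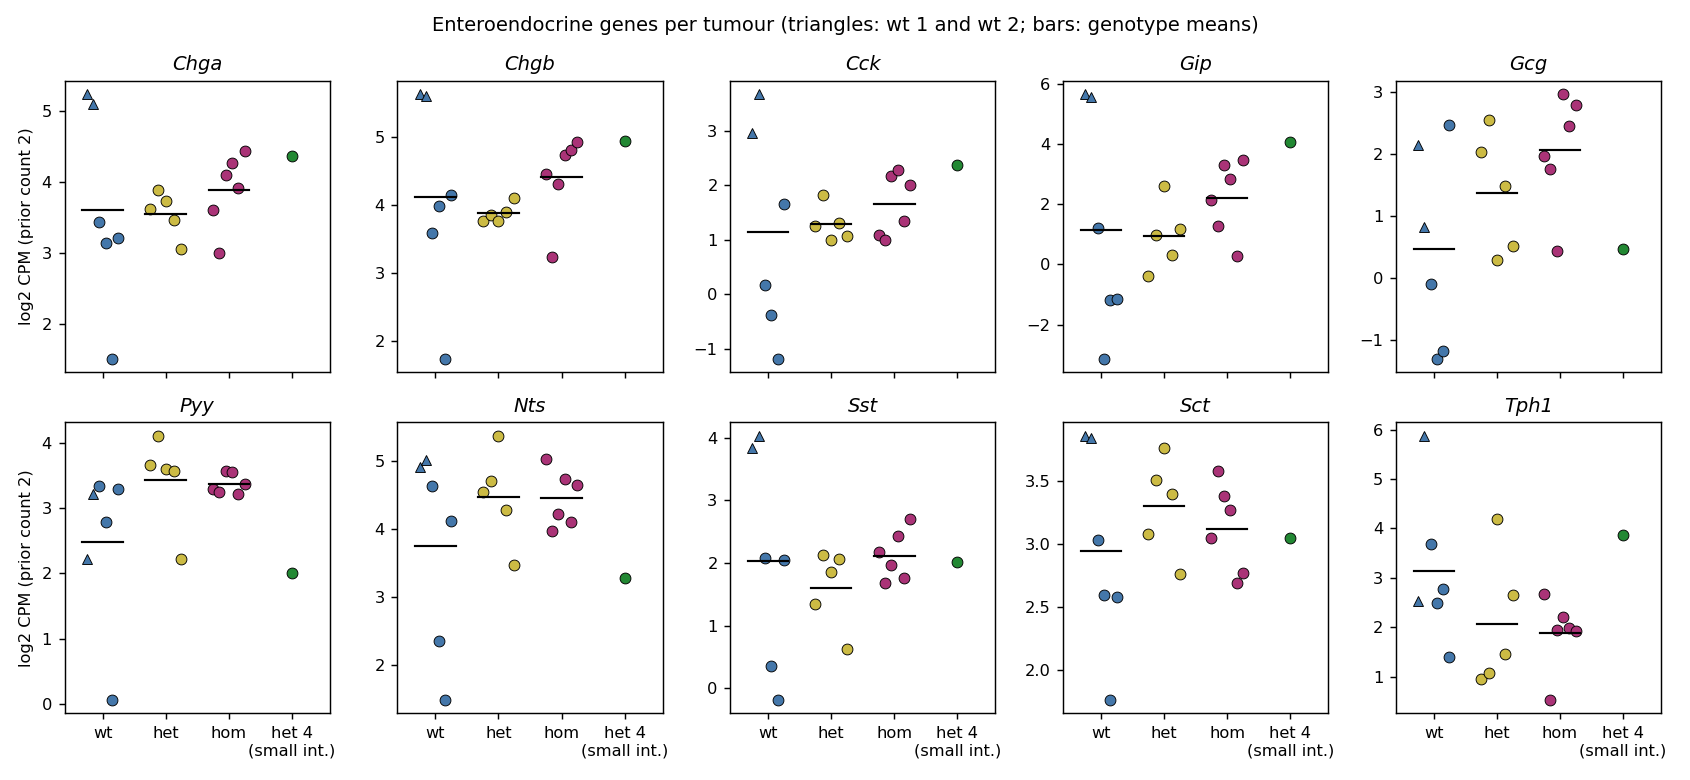
Levels of the 10 genes in each tumour as log2 CPM with a prior count of 2, each panel with its own vertical axis. Points are tumours, triangles are wt 1 and wt 2, black bars are means of the tumours labelled large intestine, and het 4 is shown alone; wt 1 and wt 2 lie above all 15 other such tumours for Chga, Chgb, Cck, Gip, Sst and Sct, and wt 5 is the lowest of the 15 for 7 genes.

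Levels by gut position parted the genes into those above the 15 others labelled large intestine in both wt 1 and wt 2 and the rest. Het 4, also rich in Gata4, shared this only in part. Both wt 1 and wt 2 lay above each of the 15 other tumours labelled large intestine for 6 of 10 genes (Chga, Chgb, Cck, Gip, Sst and Sct), while 5.09% of 14271 genes did so; below all 15 were none of the 10, against 3.59% of genes. Het 4 lay above those 15 for Chgb, Cck and Gip, against 7.19% of genes, and below them for none, against 7.4%. It lay above all 17 for none of the 10 and below all 17 for none, against 2.75% and 3.42% of genes. Wt 1, wt 2 and het 4 were all above the 15 for Chgb, Cck and Gip, against 3.27% of genes. Chga, Sst and Sct in het 4 lay inside the range of the 15. With 1 tumour labelled small intestine these are descriptions without a test.

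Gip, the K-cell hormone, differed most. Its levels were 50.7 CPM in wt 1, 47.2 CPM in wt 2 and 16.8 CPM in het 4, which are 23.4, 21.8 and 7.77 times the median of 2.17 CPM in the other 15. In the 4 other wt tumours it was 2.20 CPM in wt 3, 0 in wt 4, 0.328 in wt 5 and 0.338 in wt 6; the 0 counts in wt 4 allow up to 0.219 CPM, counting error only. Het tumours 1, 2, 3, 5 and 6 held 0.656, 1.84, 6.06, 1.13 and 2.17 CPM, and hom tumours 1 to 6 held 4.27, 2.33, 9.75, 7.02, 1.11 and 11.1 CPM. Without wt 1 and wt 2 only wt 3 reached into the hom range.

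Cck, which drives gall bladder emptying and pancreatic secretion, was 7.64 CPM in wt 1, 12.6 in wt 2 and 5.06 in het 4. In the other wt tumours it lay at 1.01, 0.657, 0.328 and 3.04 CPM (wt 3 to wt 6), so that 3 of these 4 were below every het tumour (1.89 to 3.43 CPM) and every hom tumour (1.89 to 4.74 CPM). Sct, which stimulates bicarbonate secretion, was 14.4 and 14.2 CPM in wt 1 and wt 2 and 3.28 to 13.4 CPM in the 15. Het 4, at 8.16 CPM, was in the middle of that range.

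The granule genes were highest in wt 1 and wt 2 and lowest in wt 5. Chga was 37.6 CPM in wt 1, 34.1 in wt 2 and 20.6 in het 4, with 10.7, 8.69, 2.73 and 9.18 CPM in wt 3 to wt 6. Chgb was 49.1, 48.2 and 30.6 CPM in the same 3 tumours and 11.9, 15.6, 3.22 and 17.5 CPM in wt 3 to wt 6. Wt 5 was the lowest of the 15 for both, and for Cck, Pyy, Nts, Sst and Sct too, 7 of 10 genes against 8.18% of all genes, a count made after its values were seen.

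None of the ileal hormones lay above the 15 in both wt 1 and wt 2. Pyy, a satiety peptide, was 4.55 CPM in wt 1 and 9.12 in wt 2, inside the range of 0.929 to 17.1 CPM of the 15, and its 3.91 CPM in het 4 ranked 17th of 18. Gcg, the source of the incretin and gut-growth peptides of L cells, was 4.30 and 1.66 CPM in wt 1 and wt 2 and 1.26 CPM in het 4, against a median of 3.27 CPM. Nts was 30.1, 32.3 and 9.54 CPM in these 3 tumours, against 2.68 to 41.3 CPM in the 15. In wt 1 and wt 2 Nts was 1.56 and 1.67 times the median of the 15, beside 1.77 and 1.74 times for Sct. Sst, the inhibitor of other hormone cells, parted the 3: 14.2 and 16.2 CPM in wt 1 and wt 2 but 3.91 CPM in het 4, within the 0.765 to 6.38 CPM of the 15.

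Tph1 was high in a few single tumours. It reached 58.7 CPM in wt 2, with 18.1 CPM in het 3, 14.4 in het 4 and 12.7 in wt 3, while wt 1 held 5.70 CPM. The hom tumours held 1.32 to 6.29 CPM (median 3.79), and het tumours 1, 2, 5 and 6 held 1.82, 2.0, 2.62 and 6.16 CPM. Mast cell genes ranked the tumours in much the same way: the summed level of 12 such genes was 8313 CPM in wt 2, 1742 in het 3, 1380 in het 4 and 1068 in wt 3, and 41.9 to 724 CPM in the other 14. None of the 12 was at 0 in any tumour.

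The contrast of hom with wt addresses the loss of both Macrod2 copies. With all 17 tumours none of the 10 genes passed (edgeR quasi-likelihood test, adjusted p under 0.05), against 0.00701% of 14271 genes, which is Macrod2 alone. At an unadjusted p under 0.05 the count was 1 of 10, Tph1 (at that level 10.6% of genes were lower and 5.35% higher). All 10 passed the filter on low counts. The groups overlapped for each of the 10, where 0.364% of genes had every hom tumour higher and 0.315% every hom tumour lower.

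Tph1 had 3.89 ± 1.6 CPM in hom (SD, n = 6) and 15.3 ± 21.5 CPM in wt (SD, n = 6), a log2 fold change of -2.01 (SE 0.76, 95% interval -3.61 to -0.41; edgeR adjusted p = 0.265). Without wt 2 the estimate was -0.77, and without wt 1 and wt 2 it was -0.81 (edgeR adjusted p = 0.406). All 12 mast cell genes had lower estimates in hom, where 45.7% of all genes had higher ones with 17 tumours and 50.6% with 15. Their median log2 fold change was -3.32, or -1.98 without wt 1 and wt 2, and none passed in either fit. Their summed level was 50.8 to 255 CPM in hom (median 132) and 41.9 to 8313 CPM in wt (median 599). The part of mast cell RNA in the Tph1 value was not tested.

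Gip was the other wide estimate, -1.56 with an interval of -4.01 to 0.89 (edgeR adjusted p = 0.486). Gcg was higher in hom by 1.09 (-0.26 to 2.45) and Pyy by 0.56 (-0.26 to 1.38), with Nts at 0.24. Chga (-0.20), Chgb (-0.15), Cck (-0.44), Sst (-0.67) and Sct (-0.01) lay close to or below 0. Over the 10 genes the median was -0.18, beside -0.03 over all genes.

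Without wt 1 and wt 2 the estimates of 6 of the 10 genes, Chga, Chgb, Cck, Gip, Sst and Sct, changed sign. In the remaining 15 tumours 9 of 10 genes were higher in hom than in wt, with a median log2 fold change of 0.88, beside 0.01 over all 14392 genes, of which 50.6% were higher. None of the 10 passed with edgeR (adjusted p under 0.05; 0.00695% of genes did), and 5 of 10 reached an unadjusted p under 0.05 in the higher direction, against 11.6% of genes. No gene of the 10 had hom tumours all above the 4 wt tumours, which 2.22% of genes had, or all below them, which 2.79% had.

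Gip had 5.94 ± 4.04 CPM in hom (SD, n = 6) and 0.716 ± 1.0 CPM in the 4 wt tumours (SD), a log2 fold change of 3.14 (SE 0.93, interval 1.16 to 5.12; edgeR adjusted p = 0.125). DESeq2 on the same 15 tumours gave 3.08 with an adjusted p of 0.0130 and called 782 genes (5.43%), Gip being the only one of the 10. When wt 3 was left out as well, edgeR gave Gip 4.64 with an adjusted p of 0.0339 and called 1282 genes. Over all alternatives on the 15 tumours its adjusted p ran from 0.0130 to 0.388.

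Cck was higher by 1.33 (SE 0.49, interval 0.29 to 2.37; edgeR adjusted p = 0.143), with 1.26 ± 1.22 CPM in the 4 wt tumours and 3.22 ± 1.26 CPM in hom (SD, n = 6). Chga followed at 0.98 (SE 0.34; edgeR adjusted p = 0.134), with 7.83 ± 3.51 and 15.4 ± 4.91 CPM, and Chgb at 0.90 (SE 0.37; edgeR adjusted p = 0.170), with 12.1 ± 6.34 and 22.5 ± 7.60 CPM. Sct was higher by 0.60 (0.03 to 1.17), Sst by 0.80 (-0.16 to 1.76), Nts by 0.86 (-0.22 to 1.94), Gcg by 1.43 (-0.19 to 3.04) and Pyy by 0.58 (-0.38 to 1.55). Single wt tumours moved these values: without wt 6 as well Gcg was 3.31 and Cck 2.29, without wt 5 Pyy was 0.21, Nts 0.52, Sst 0.49, Sct 0.40 and Chgb 0.57, and without wt 3 Nts was 1.45. The only gene with a lower estimate was Tph1, at -0.81, or -0.32 without wt 3.

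Site genes differed alongside. All 10 genes of the small intestinal list had higher estimates in hom in the 15 tumours (median log2 fold change 1.81; none passed with edgeR), and with all 17 tumours 4 were higher and 6 lower (median -0.22). Adh6a, with the smallest p on the 15, was 3.25 there (edgeR adjusted p = 0.122) and -3.26 on the 17, and Lct was 3.82 and -4.73. Their summed level was 543 to 4050 CPM in the 4 wt tumours (median 1512) and 2867 to 15660 CPM in hom (median 6425). The part of gut position in the hormone values was not tested.

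**Figure D2:**
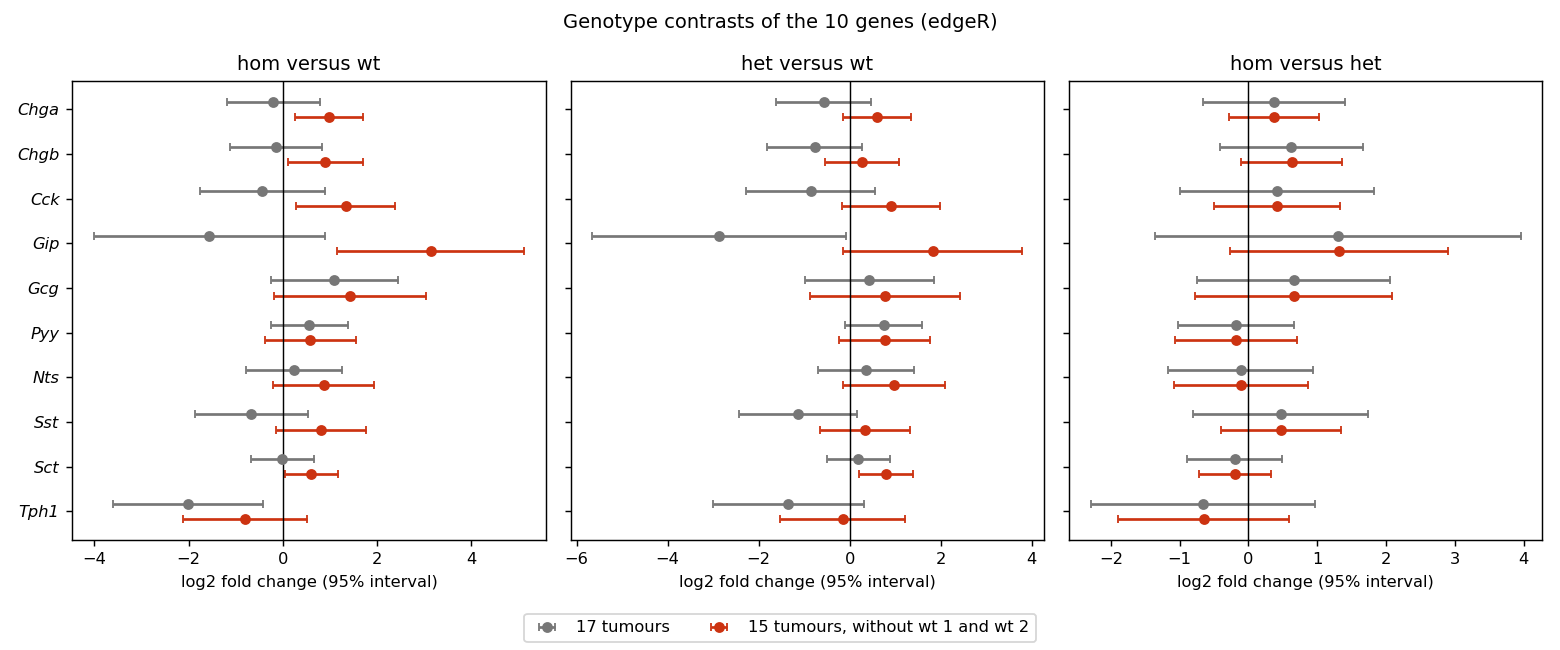
Log2 fold changes of the 10 genes between genotypes, estimated with edgeR, with 95% intervals, on all 17 tumours labelled large intestine (grey) and on the 15 without wt 1 and wt 2 (red); the 3 panels have their own horizontal scales. In hom versus wt Gip moves from -1.56 to 3.14 between the fits, while hom versus het hardly moves.

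Het was compared with wt for the loss of 1 copy; the contrast shares its wt tumours with the one above. With 17 tumours none of the 10 genes passed with edgeR, and no gene of 14271 did (0.0%), with 407 genes at an unadjusted p under 0.05. Of the 10, only Gip reached that level, in the lower direction, where 1.67% of genes were lower and 1.18% higher. The groups overlapped for all 10, where 0.0981% of genes had every het tumour higher and 0.042% every het tumour lower. Gip was lowest, with a log2 fold change of -2.87 (interval -5.66 to -0.08; edgeR adjusted p = 0.999), followed by Tph1 at -1.35, Sst at -1.14, Cck at -0.86, Chgb at -0.77 and Chga at -0.57. Without wt 2 Tph1 was -0.11, Cck -0.11 and Sst -0.65, without wt 1 Chga was -0.17 and Chgb -0.43, and without het 3 Tph1 was -2.33. Pyy at 0.74, Gcg at 0.43, Nts at 0.35 and Sct at 0.19 had higher estimates.

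Without wt 1 and wt 2, 9 of 10 were again higher than in wt, with a median of 0.77. Over all genes the median was 0.00 and 50.2% were higher, and no gene passed (0.0%). Of the 10, Sct had the smallest p, with 5.78 ± 1.96 CPM in the 4 wt tumours and 10 ± 2.60 CPM in het (SD, n = 5), a log2 fold change of 0.80 (interval 0.21 to 1.39; edgeR adjusted p = 0.620). Of the 10 it alone reached an unadjusted p under 0.05, against 4.31% of genes higher and 3.02% lower at that level. No gene of the 10 had groups that did not overlap, which 0.82% of genes had with het higher and 0.575% with het lower. Gip was 1.82 (interval -0.15 to 3.80), Nts 0.97, Cck 0.91, Gcg and Pyy both 0.77, Chga 0.60, Sst 0.33 and Chgb 0.27, while Tph1 was -0.16.

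Hom versus het asks whether the second copy adds a difference, and the wt tumours enter it only through the shared spread; it shares its tumours with both contrasts above. None of the 10 genes passed with edgeR in either fit, against 0.00701% of genes with 17 tumours and 0.00695% with 15, which is Macrod2 alone. None reached an unadjusted p under 0.05 either, where 0.974% of genes were higher and 1.03% lower with 17 tumours, and 1.36% and 1.52% with 15. The groups overlapped for all 10, where 0.0701% of genes had every hom tumour higher and 0.119% every hom tumour lower. Gip was higher in hom by 1.31 (interval -1.35 to 3.96; edgeR adjusted p = 0.9998) with 17 tumours and by 1.32 (-0.27 to 2.90) with 15. Gcg (0.66), Chgb (0.62), Sst (0.47), Cck (0.42) and Chga (0.37) had higher estimates on 17 tumours, and Tph1 (-0.66), Sct (-0.20), Pyy (-0.18) and Nts (-0.11) lower ones. Chgb had a narrow spread in het, 14.6 ± 1.47 CPM (SD, n = 5), beside 22.5 ± 7.60 CPM in hom (SD, n = 6), whose lowest tumour, hom 2 at 9.25 CPM, lay under all 5 het tumours.

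Other genes of these cells gave no call in any contrast. In hom versus wt 45.7% of all genes had higher estimates with 17 tumours and 50.6% with 15. The counts of higher estimates below stand beside these shares. Of 22 enteroendocrine transcription factors 12 passed the filter, and in hom versus wt 5 were higher and 7 lower, with a median of -0.09. On the 15 tumours 8 of 13 were higher, with the smallest p for Atoh1, the secretory lineage factor, at 1.01 (edgeR adjusted p = 0.125), and among the lower ones Foxa1 had the smallest p, at -0.21. Neurog3, which commits cells to the endocrine fate, was scarce, with 0 to 26 counts over the 18 tumours.

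Genes of granule processing and secretion were higher in hom for 15 of 21 tested (median 0.16) and for 16 of 21 on the 15 tumours (median 0.29). Among them Syt7, a calcium sensor of exocytosis, had 0.51 with 17 tumours (edgeR adjusted p = 0.276; 0.46 with 15) and Ptprn2, a granule membrane phosphatase family protein, had 0.89 with 15 (edgeR adjusted p = 0.156; 0.49 with 17). Of 10 other gut hormones 5 were tested. The lowest p among them belonged to Ghrl, the ghrelin gene, at -1.17 with 17 tumours (-0.83 with 15), and to Penk, proenkephalin, at -0.84 with 15 (edgeR adjusted p = 0.127; -0.47 with 17).

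Of 7 genes of serotonin handling 3 were higher in hom with 17 tumours and 5 with 15. The vesicle transporter Slc18a2, which mast cells use, was -2.14 and -1.23, while Slc18a1, the transporter of enterochromaffin cells, was 0.09 with 17 tumours and 0.08 with 15. Of 14 nutrient and signal sensors 7 were tested with 17 tumours and 4 were higher; the irritant channel gene Trpa1 was 0.74 (edgeR adjusted p = 0.272), and 1.09 with 15 tumours.

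Receptors and peptidases of these hormones were tested for 8 of 27 genes with 17 tumours, of which 5 were higher in hom, and for 10 with 15, of which 9 were higher (median 1.03). Glp2r, the receptor of the Gcg-derived growth peptide, was 2.62 on the 15 (edgeR adjusted p = 0.122) and Glp1r, the incretin receptor, was 1.07 on the 17 (edgeR adjusted p = 0.283); on the other set of tumours they were 1.12 and 0.78.

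Other sources of these transcripts were checked by markers. Of 16 enteric neuron and glia genes 9 were tested, and 5 were higher in hom with 17 tumours and 6 with 15. The summed level of the list was 29.1 to 59.2 CPM in wt, 32.1 to 82.2 in het and 42.3 to 77.9 CPM in hom. Its neuronal genes were not all low: Elavl3 had at most 3 counts, while Ret had 213 to 1254, Uchl1 52 to 211 and Tubb3 21 to 87 counts. The part of neuronal RNA in the values of the 10 genes was not tested beyond the correlations with this list given below. Of 10 pancreatic genes only Cela1, which gut epithelium also expresses, was above the filter, and Ins1, Ins2 and Amy2a5 had no count in any tumour.

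Relations between genes were examined over the 15 tumours other than wt 1, wt 2 and het 4, with log2 CPM and 100000 permutations. The family held 95 relations: 45 pairs of the 10 genes, 30 with the mean of the mast cell, enteric neuron and glia, and epithelial lists, and 20 with Gata4 and Fabp6, which were added after the data had been seen. For 10 of the 95 both adjusted p-values were under 0.05, among them 6 of the 45 pairs. The median r of the 45 pairs was 0.64, and 7 pairs had a negative r. Ranks gave lower values for some pairs, such as Chgb with Pyy (r = 0.69, rho = -0.01) and Chgb with Nts (r = 0.61, rho = 0.23). Cck with Nts had r = 0.73 and rho = 0.44, and r was -0.01 without the 2 tumours farthest from the median of Cck. With the enteric neuron and glia list rho ran from -0.49 (Tph1) to 0.29 (Gcg), and with the epithelial list from -0.08 (Pyy) to 0.45 (Chgb). None of the 10 genes passed by both measures with either list. The 6 pairs that passed by both measures are given next.

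The closest pair by rho was Chga with Cck (r = 0.84, rho = 0.81; adjusted permutation p = 0.00339 and 0.00982), and r was 0.65 without the 2 tumours farthest from the median of Chga. Cck with Gcg (r = 0.82, rho = 0.79) and Nts with Sst (r = 0.88, rho = 0.78) followed, with r of 0.60 and 0.59 without the 2 farthest tumours. Pyy went with Nts (r = 0.85, rho = 0.72) and with Sct (r = 0.80, rho = 0.71), and Chgb with Cck (r = 0.76, rho = 0.72, but r = 0.45 without 2 tumours).

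Tph1 stood outside this group. Its rho with the other 9 genes ran from -0.56 with Gcg to 0.12 with Nts, and none passed. It followed the mast cell list instead (r = 0.85, rho = 0.85; adjusted permutation p = 0.00285 and 0.00807), and r was 0.86 without the 2 farthest tumours.

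Nts followed Fabp6 (r = 0.92, rho = 0.85; adjusted permutation p = 0.00332 and 0.00807; r = 0.84 without the 2 farthest tumours), and Sct did too (r = 0.70, rho = 0.70; r = 0.49 without them). Gip followed Gata4 (r = 0.68, rho = 0.75; adjusted permutation p = 0.0207 and 0.0326; r = 0.72 without the 2 farthest tumours). The rho of Gata4 with Chga, Cck, Nts and Sst was 0.29, 0.14, 0.22 and 0.14. Fabp6 had r = 0.70 with Gip as well (rho = 0.575). Its r was 0.87 with Sst, 0.74 with Gcg, 0.72 with Pyy, 0.69 with Cck and 0.65 with Chga. The rho of these was 0.63, 0.49, 0.62, 0.27 and 0.47. Neither Gip nor any of these passed with Fabp6 by both measures. With Chgb and Tph1 the r of Fabp6 was 0.41 and -0.16. Over all 17 tumours labelled large intestine Nts with Fabp6 (r = 0.31, rho = 0.41) and Sct with Fabp6 (r = -0.03, rho = 0.17) did not pass. Gip with Gata4 passed there too (r = 0.795, rho = 0.82). The tumours share genotype groups and gut position, and neither was held fixed in these relations.

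**Figure D3:**
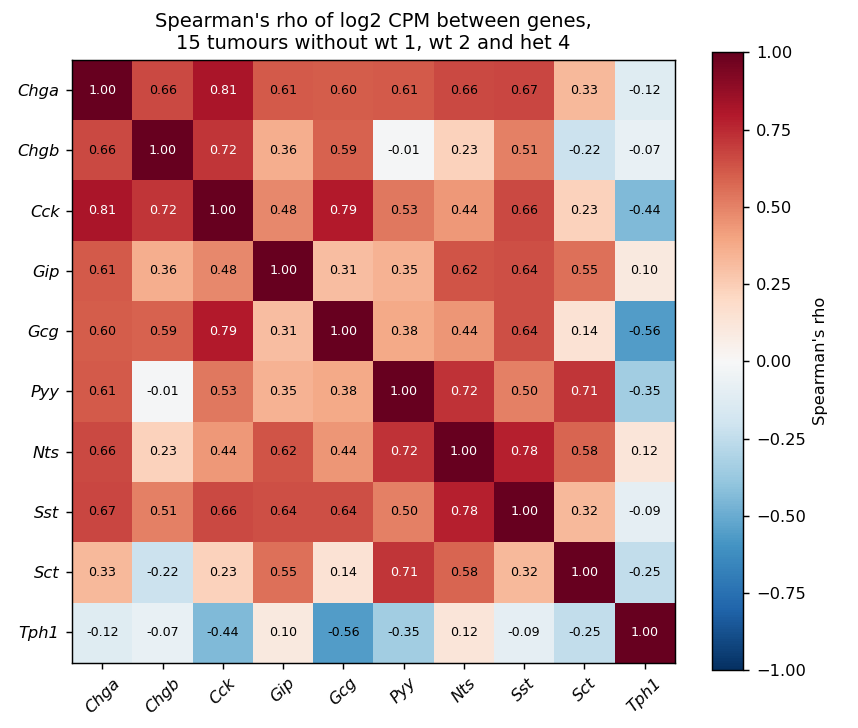
Spearman's rho of log2 CPM for each pair of the 10 genes over 15 tumours, from -1 (blue) to 1 (red). The reddest pairs are Chga with Cck (0.81), Cck with Gcg (0.79) and Nts with Sst (0.78). Apart from its diagonal cell, the Tph1 row is blue or near white.

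**Figure D4:**
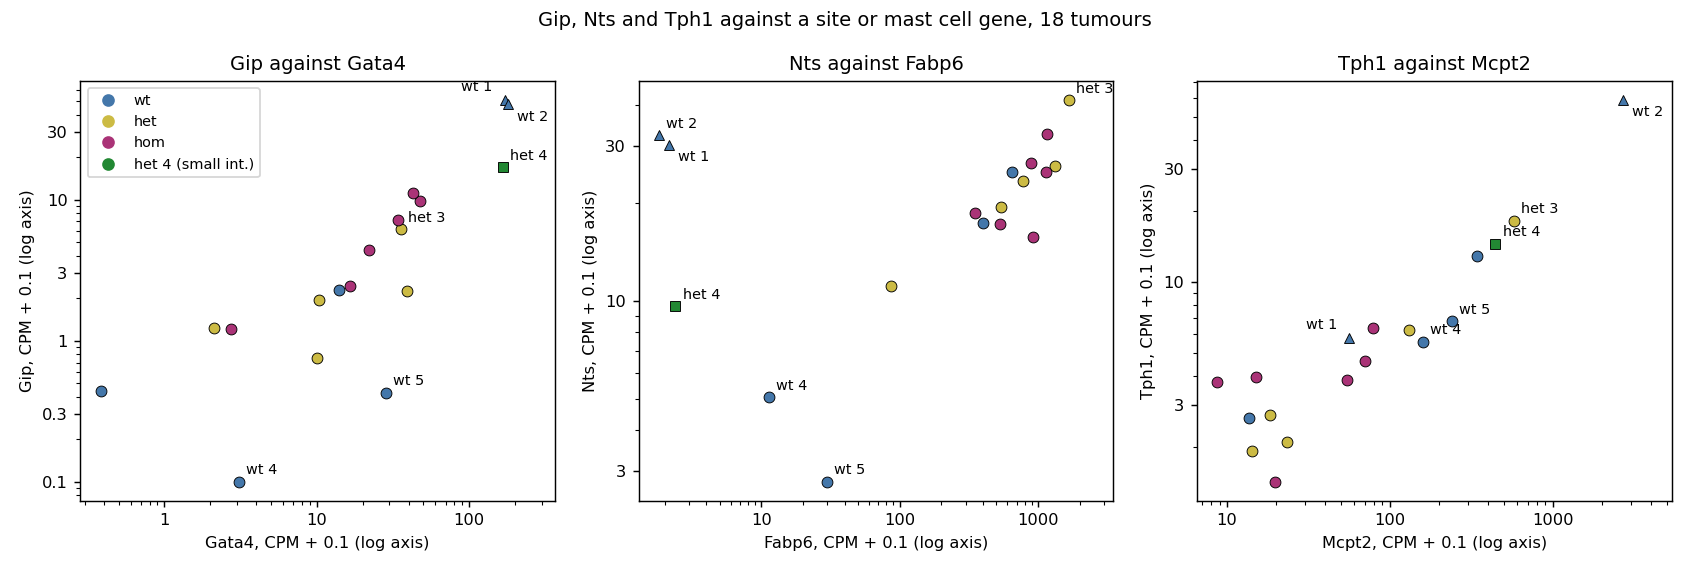
Levels in all 18 tumours on log axes (CPM + 0.1) of Gip against Gata4, Nts against Fabp6 and Tph1 against the mast cell protease gene Mcpt2, coloured by genotype, with triangles for wt 1 and wt 2 and a square for het 4. Wt 1, wt 2 and het 4 hold the highest Gata4 and Gip, and their Fabp6 levels of 1.73 to 2.30 CPM place them left of the others in the Nts panel.

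Genes most like each of the 10 were ranked by rho over the same 15 tumours among 12501 candidates. Picking the highest of so many candidates over 15 tumours yields high rho by itself. No chance level was computed, so the ranks are descriptions. For Gip these were Ugt2a3 (rho = 0.98), Slc5a4b (0.98) and Fabp1 (0.97), an enzyme, a sugar carrier family gene and a fatty acid binding protein. For Nts they were Aplp1 (0.95), Cytip (0.94) and Tmem106a (0.93), and for Chga Gnai1, Por and Slc39a5 (0.91 to 0.90). For Tph1 the nearest was the mast cell chymase Cma1 (0.88), then Smarca5-ps (0.88), a pseudogene whose reads may be shared with its parent, and Alox5 (0.87). Gcg went with Ccl6, Rnf144a and Aqp4 (0.91 each), Pyy with Il10ra, Xylt2 and Tmem98 (0.89 to 0.88), and Cck with Apoe, Fcgbp and Tmem253 (0.86 to 0.85). Chgb was nearest to Rnf39 (0.85), Sst to Ednrb (0.85) and Sct to Prrg2 (0.86).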

How the data were processed

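Libraries were made from total RNA of resected tumours with a TruSeq Stranded Total RNA kit, per the labels' protocols, although polyA RNA is given as the molecule. Whole-number read counts per gene and the authors' RPKM values make up the deposited table. The submitters' processing notes name the mm10 build, TopHat, Trimmomatic, Subread (version 1.4.5-p1) and featureCounts, with no order; the strand setting is not given in the sources used here.

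Genotype and source labels gave the groups. Counts were tested with edgeR 4.0.16 (R 4.3.3): filterByExpr kept 14271 genes, or 14392 without wt 1 and wt 2, and TMM factors, a robust quasi-likelihood fit to 3 genotypes and Benjamini-Hochberg adjustment over all genes followed (threshold 0.05). Het 4 entered no contrast. DESeq2 1.42.0 and limma 3.58.1 (voom) were alternatives. Log2 CPM used a prior count of 2. No 2 libraries agreed within sampling noise (lowest chi-square per degree of freedom 20.3), and all value columns were matched by name. Each mouse number occurs once in a genotype, so each tumour counted as 1 animal; numbers shared across genotypes did not pair them. The scripts were tested on simulated counts.

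The 10 genes, the other lists and the setting aside of wt 1 and wt 2 were chosen with earlier results of these data known. Named were all 10 genes, of each other list the gene per direction with the smallest p in a contrast, fixed site and mast cell genes, and the 3 genes of highest rho. Outside this rule Insl5, Elavl3, Uchl1, Tubb3, Neurog3, Hoxd12, Hoxd13 and the pancreatic genes were picked after their values were seen. Promoters came from RefSeq (GRCm38.p6), where all 10 genes matched, and positions from GENCODE. Windows that overlap the annotated gene were not printed.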

Additional observations from a re-analysis of the deposited data

Results flagged for a closer look

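Within genotypes, 6 of 40 groups of 4 to 6 tumours had 1 tumour far from the rest by Dixon's test. The test was made on log2 CPM at its 95% level, which chance alone passes in about 1 of 20 groups. The values below are in CPM, a scale on which the test was not made. The 40 include the 6 wt tumours and, nested in them, the 4 without wt 1 and wt 2 for each gene, so they are not separate and Pyy in wt 5 counts under both. Wt 5 was low in Pyy, with 0.929 CPM against 4.55 to 9.98 CPM in the other wt tumours and 6.79 to 9.98 CPM without wt 1 and wt 2. It was also low in Chga, with 2.73 CPM against 8.69 to 10.7 CPM among the 4 wt tumours. Het 6 was low in Pyy, with 4.56 CPM against 11.7 to 17.1 CPM. Hom 2 was low in Chgb, with 9.25 CPM against 19.7 to 30.3 CPM, and in Tph1, with 1.32 CPM against 3.67 to 6.29 CPM.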

How the results depend on the processing

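With 17 tumours, 759 of 810 alternative values of the 10 genes kept their direction and their side of the threshold and 51 reversed; with 15 the counts were 529 of 540 and 9, and 2 more, both of Gip in hom versus wt, passed it. In hom versus wt without these 2 the log2 fold changes were 0.98 for Chga, 0.90 for Chgb, 1.33 for Cck, 3.14 for Gip, 0.80 for Sst and 0.60 for Sct, and in het versus wt 0.60 for Chga, 0.27 for Chgb, 0.91 for Cck, 1.82 for Gip and 0.33 for Sst. With limma-voom hom versus wt gave 0.31 for Chga, 0.33 for Chgb, 0.54 for Cck, 1.43 for Gip, 0.13 for Sst and 0.17 for Sct, and het versus wt 0.18 for Cck and 0.0709 for Gip; the cause was not tested. Sct in hom versus wt, near 0, was 0.0134 with RLE factors, 0.061 with upper-quartile factors, 0.0312 with no filter, 0.0135 with DESeq2, 0.0343 with only the 2 groups, 0.030 with all 18 tumours and 0.0226 without Rn45s.

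Genes called in hom versus wt numbered 22 with DESeq2 and 782 with DESeq2 on 15 tumours, where 1 of the 10 genes was called; in het versus wt DESeq2 on 15 called 1. In hom versus het 0 were called with only the 2 groups. Of the relations, 18 passed over 17 tumours against 10 over 15, and Nts and Sct with Fabp6 passed only over the 15. For all of these the cause was not tested. DESeq2 called none of the 10 with 17 tumours. All alternatives on the 15 tumours were chosen after seeing the data.

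Mouse numbers did not pair the tumours: same-numbered tumours correlated over 0.1 in 2 of 5, 0 of 6 and 2 of 5 pairs, and 1 of 17 tumours matched its own number best. With the replicate block 2 genes were called in hom versus wt and 0 in hom versus het, and on 15 tumours 0 in both. The block gave 0.17 for Chga, 0.10 for Chgb, 0.23 for Cck and 0.0839 for Sct in hom versus wt, and 0.0826 for Nts in hom versus het (0.0086 on 15 tumours).

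With 1 tumour left out, the genes called ranged from 1 to 2 in hom versus wt (2 without hom 2) and were 0 in het versus wt and 1 in hom versus het. On the 15 they ranged from 1 to 1282 in hom versus wt (1282 without wt 3, 4 without wt 6), with 0 to 1 of the 10 genes among them, and from 0 to 1 in hom versus het (0 without hom 4). Estimates that reversed in hom versus wt ranged from -0.38 to 0.20 for Chga, -0.34 to 0.19 for Chgb, -0.63 to 0.31 for Cck and -0.14 to 0.21 for Sct. In hom versus het they ranged from -0.39 to 0.0097 for Pyy, -0.30 to 0.18 for Nts and -0.88 to 0.32 for Tph1 (0.32 without het 3), and on 15 tumours from -0.39 to 0.0103, -0.30 to 0.18 and -0.89 to 0.33. In het versus wt on 15 tumours Chgb ranged from -0.0505 to 0.51 and Tph1 from -1.14 to 0.32.

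Tumours of 4 to 6 per genotype and counts as low as 0 to 36 for Gip in several limit the precision of single genes.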
